A study of Homo sapiens with 2 samples.

Results

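The genes described here encode chaperones and proteases that fold and clear proteins inside mitochondria: HSPD1, HSPE1, HSPA9, TRAP1, GRPEL1, DNAJA3, LONP1, CLPP, CLPX and HTRA2. They were chosen by name from knowledge of mitochondrial protein quality control, and each symbol matched 1 row of the deposited table. The 10 genes are part of 50229 symbols, of which 11645 reached 1 FPKM (fragments scaled to transcript length and library size) in at least 1 library, among them all 10. RNA came from ARP1, an established human multiple myeloma line, as 1 library labelled siVCP (treatment given as VCP knockdown) and 1 library labelled siNC (control), called siVCP and siNC here. No source used here gives the siRNA sequence, the dose or the time after transfection.

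Each group held a single library, so nothing could be tested and every difference is one between 2 libraries. Brackets hold 95% intervals, which reflect counting alone, and the labels name no molecular identifiers, so reads may not be separate molecules. Counts summed to 68872657 in siVCP and 72566092 in siNC. VCP, the gene named as the target, stood against its label, with 65.9 FPKM in siVCP and 47.7 in siNC, so the directions given here follow the labels, and no loss of VCP was seen in its RNA. All 9 plasma cell and myeloma markers looked at had counts in both libraries, with summed FPKM of 1632 and 1844. The 6 marker lists of T, myeloid, stromal, epithelial, erythroid and adipocyte cells summed to between 0.544 and 7.64 FPKM in siVCP and between 0.564 and 8.845 in siNC. Of their markers, CD3D, COL1A2, KRT19, ALAS2, PLIN1, FABP4 and ADIPOQ had a count of 0 in both, where a 0 allows up to 12 counts. Others had counts. TRAC (1.55 FPKM in siVCP and 2.51 in siNC), KRT18 (1.66 and 1.61) and CD68 (1.10 and 1.41) exceeded 1 FPKM. None of the 4 myeloid markers was at 0 in both. The protocol text refers to an adipose sample, and of the 4 adipocyte markers PPARG alone had counts. In bulk RNA, fewer cells with a transcript and less of it per cell cannot be told apart.

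Nearly all mitochondrial proteins are made in the cytosol and enter the organelle unfolded. In the matrix, HSPA9 (mortalin), the mitochondrial HSP70, pulls them in and folds them with its J-protein cochaperone DNAJA3 and its nucleotide exchange factor GRPEL1. Some are then passed to the chaperonin, a barrel of HSPD1 (HSP60) capped by a lid of HSPE1 (HSP10). TRAP1 is the HSP90 of mitochondria. Proteins that fail to fold are degraded by LONP1, which holds an ATPase and a protease in a single chain, or by CLPXP, in which the ATPase ring CLPX unfolds substrates into the peptidase chamber CLPP. HTRA2 (Omi) is a serine protease of the intermembrane space.

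HSPD1 and HSPE1 are neighbours on chromosome 2 that are read in opposite directions from a shared start region, and their promoter windows are shown because the pair differed in its ratios between libraries, as given further on. The windows run from 250 bases before a start to 50 after it and come from RefSeq (build GRCh38.p14), which held 11 windows for 8 of the 10 genes. GRPEL1 and CLPP were not matched. The HSPE1 window, plus strand, lies at chr2:197500129-197500428, and it shares 204 bases with the upstream window of HSPD1, whose start lies 105 bases from that of HSPE1. The second HSPD1 window, minus strand, lies at chr2:197499791-197500090. DNAJA3, the gene with the highest ratio of the 10, has its window at chr16:4425618-4425917 on the plus strand, and the upstream LONP1 window lies at chr19:5720403-5720702 on the minus strand. Capitals mark matches, on either strand, to the heat shock element pairs GAANNTTC and TTCNNGAA, to the core of the C/EBP-ATF response element TGATGNAA and to the nuclear respiratory factor 1 core GCGCATGC.
HSPE1: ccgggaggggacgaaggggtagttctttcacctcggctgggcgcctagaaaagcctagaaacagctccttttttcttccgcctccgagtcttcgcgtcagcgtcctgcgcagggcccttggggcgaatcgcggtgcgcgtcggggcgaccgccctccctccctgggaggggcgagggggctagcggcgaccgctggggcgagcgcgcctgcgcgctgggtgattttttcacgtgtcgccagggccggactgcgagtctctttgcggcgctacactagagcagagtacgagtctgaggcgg
HSPD1: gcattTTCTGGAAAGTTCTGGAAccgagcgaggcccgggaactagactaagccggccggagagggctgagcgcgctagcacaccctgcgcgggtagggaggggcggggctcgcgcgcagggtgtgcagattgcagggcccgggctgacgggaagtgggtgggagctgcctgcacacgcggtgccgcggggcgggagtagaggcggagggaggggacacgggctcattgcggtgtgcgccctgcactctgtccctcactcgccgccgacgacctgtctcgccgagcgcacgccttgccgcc
DNAJA3: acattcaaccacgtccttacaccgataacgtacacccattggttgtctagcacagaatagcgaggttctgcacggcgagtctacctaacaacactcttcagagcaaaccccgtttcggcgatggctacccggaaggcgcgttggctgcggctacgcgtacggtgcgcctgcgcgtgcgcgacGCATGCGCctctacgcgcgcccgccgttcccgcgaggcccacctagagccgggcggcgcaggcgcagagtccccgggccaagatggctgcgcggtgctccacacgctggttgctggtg
LONP1: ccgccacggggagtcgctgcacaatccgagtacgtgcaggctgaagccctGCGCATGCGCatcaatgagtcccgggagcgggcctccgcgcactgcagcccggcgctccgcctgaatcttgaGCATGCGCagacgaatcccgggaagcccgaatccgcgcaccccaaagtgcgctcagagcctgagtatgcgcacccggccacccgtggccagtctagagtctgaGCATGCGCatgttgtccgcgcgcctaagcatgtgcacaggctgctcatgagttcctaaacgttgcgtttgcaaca

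The capitals in HSPD1 form a run of 4 alternating heat shock units at chr2:197500068-197500085. This run lies 228 bases before the downstream HSPD1 start, whose window is printed here, and 294 bases before the RefSeq start of HSPE1. The deposited coordinates start HSPE1 further upstream, at 197500140, nearer to the run. From the upstream HSPD1 start it is 189 bases inside the gene. Of all 35116 RefSeq promoter windows, 12 held such a run of 4 units (0.0342%) and 172 held 3 in a row (0.49%). The HSPE1 window, placed by the RefSeq start, does not reach the run and held no match to any of the motifs. Single pairs were more common, with GAANNTTC in 6.77% and TTCNNGAA in 7.74% of all windows, and these 2 motifs overlap within a run. The remaining heat shock match among the 10 genes was 1 TTCNNGAA over the start site of HSPA9. GCGCATGC was found in LONP1 at 4 positions, 2 of which overlap, and once in DNAJA3, against 3.05% of all windows. None of the 11 windows held TGATGNAA, which 3.62% of all windows held. These are matches of letters and not measured binding sites.

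Most of the 10 transcripts were slightly more abundant in siVCP, but their ratios were spread. DNAJA3 and HSPE1 were at least 1.5-fold higher on the scale log2((FPKM + 1) in siVCP / (FPKM + 1) in siNC), called the log2 ratio here, where 4.53% of all 11645 genes were. None of the 10 was at least 1.5-fold lower, against 5.87% of all genes. HSPA9 joined them among the genes at least 25% higher in siVCP (3 of 10, against 13.9% of all genes), and CLPX was the single gene at least 25% higher in siNC (1 of 10, against 18.3%). The 6 chaperones and cochaperones had a median log2 ratio of 0.29 and the 4 protease subunits one of 0.13. The median log2 ratio was 0.19 over the 10 genes and -0.02 over all genes, and 8 of the 10 were above 0 against 47.2% of all genes. These shares describe 1 pair of libraries. The 4.53% higher and 5.87% lower of all genes are also the background for the later counts of list genes past 1.5-fold. At such shares a short list may hold none.

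**Figure D1:**
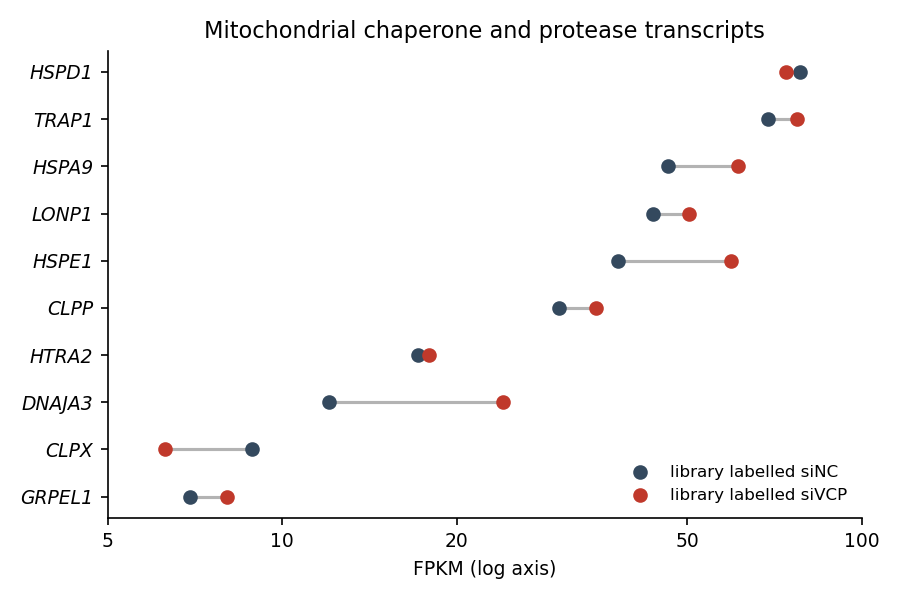
FPKM on a log axis of each of the 10 genes in the library labelled siNC (dark) and the library labelled siVCP (red), joined by a line, 1 library each. The longest lines to the right belong to DNAJA3 (12.1 to 24.1) and HSPE1 (38.0 to 59.4), and HSPD1 and CLPX are the 2 genes with the red point on the left.

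By FPKM, which is per length, the order in siNC ran from HSPD1 (78.1) over TRAP1 (68.9), HSPA9 (46.3), LONP1 (43.7), HSPE1 (38.0), CLPP (30.0), HTRA2 (17.2), DNAJA3 (12.1) and CLPX (8.87) to GRPEL1 (6.94). In siVCP TRAP1 stood above HSPD1, HSPE1 above LONP1, DNAJA3 above HTRA2 and GRPEL1 above CLPX. The highest gene was 11.3-fold above the lowest in siNC and 12.3-fold in siVCP. The 10 summed to 350.0 FPKM in siNC and 413 in siVCP. Whether neighbours in this order differ beyond a spread between samples could not be seen with 1 library each.

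The barrel and the lid of the chaperonin had different ratios. HSPE1 (ENSG00000115541), the lid, had 59.4 FPKM in siVCP and 38.0 in siNC, from 8938 and 6039 counts. That is 1.56-fold higher in siVCP [1.46 to 1.67], a log2 ratio of 0.63, and 436 of all genes (3.74%) had a higher one. With a pseudocount of 5 in place of 1 its log2 ratio was 0.58, just under 1.5-fold. HSPD1 (ENSG00000144381), the barrel, had 74.0 FPKM in siVCP and 78.1 in siNC, from 25172 and 28050 counts. Its level was 1.06-fold lower in siVCP [1.02 to 1.09], a log2 ratio of -0.08, and 56.9% of all genes had a higher one. HSPD1 made up 22.3% of the summed FPKM of the 10 genes in siNC and 17.9% in siVCP, while the share of HSPE1 was 10.9% and 14.4%. The barrel transcript was thus 2.055 times as abundant as the lid transcript in siNC and 1.245 times in siVCP, and the ratio of these ratios was 0.606 [0.563 to 0.653]. The build of the deposited coordinates is not given, and 90.6% of the identifiers found in GENCODE 29 (GRCh38) share a start or end with it. In these coordinates HSPE1 lies on chromosome 2 from 197500140 to 197503382 on the plus strand. HSPD1 lies from 197486584 to 197500274 on the minus strand. The gene spans overlap by 135 bases, and since strandedness is not given in the sources used here, reads from that stretch cannot be told apart. The read-through row HSPE1-MOB4, which shares 2970 bases with HSPE1 on its strand, had a count of 0 in both libraries (under 12 counts, or 3 fragments). Both genes have many processed pseudogenes. The 17 rows named as HSPD1 copies held 1.89 and 2.46% as many counts as HSPD1 in siVCP and siNC, and the 26 rows of HSPE1 copies 2.84 and 2.55% as many as HSPE1, and how reads shared with them were split is uncertain.

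The HSP70 cycle held the largest difference. DNAJA3 (ENSG00000103423; chromosome 16, 4425805 to 4456775, plus strand), the J-protein that hands substrates to HSPA9, had 24.1 FPKM in siVCP and 12.1 in siNC, from 14053 and 7427 counts. It was 1.997-fold higher in siVCP [1.89 to 2.11], a log2 ratio of 0.94 that 146 of all 11645 genes exceeded. HSPA9 (ENSG00000113013; chromosome 5, 138553756 to 138575416, minus strand) had 61.1 and 46.3 FPKM, from 40065 and 32027 counts. That was 1.32-fold higher [1.28 to 1.36], and 10.1% of all genes had a higher log2 ratio than its 0.39. GRPEL1 (ENSG00000109519; chromosome 4, 7058895 to 7068064, minus strand), which releases ADP from HSPA9, had 8.03 and 6.94 FPKM, from 2689 and 2451 counts, and was 1.16-fold higher [1.04 to 1.29]. All 3 genes of the cycle were thus on the higher side in siVCP, with DNAJA3 the furthest. HSPA9 transcripts stood at 3.84 times those of DNAJA3 in siNC and 2.54 times in siVCP, a ratio of ratios of 0.661 [0.620 to 0.704].

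DNAJA3 starts 99 bases from CORO7, which is read in the opposite direction and encodes an actin-regulating coronin of the Golgi. CORO7 had 16.1 FPKM in siVCP and 20.1 in siNC, a log2 ratio of -0.30, on the other side of 0 from DNAJA3. The read-through row CORO7-PAM16, chosen after its values were seen, had 11.3 and 1.75 FPKM, a log2 ratio of 2.16, and lies 5310 bases from DNAJA3. It held 3563 counts in siVCP and 583 in siNC, against 11697 and 15395 for CORO7. Since it joins CORO7 to PAM16, the split of reads between it and CORO7 is uncertain. The direction of CORO7 may rest on that split. Of the 3 clone-named rows inside DNAJA3, none had more than 23 counts in either library, against its 14053 and 7427.

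Among 7 further partners of HSPA9, 2 were at least 1.5-fold higher, 0 were at least 1.5-fold lower and the median log2 ratio was 0.17. GRPEL2, the second mitochondrial nucleotide exchange factor and a paralog of GRPEL1, had 4.92 FPKM in siVCP and 2.38 in siNC, which is 2.07-fold higher [1.76 to 2.44]. GRPEL1 exceeded GRPEL2 by 2.92 times in siNC and by 1.63 times in siVCP. DNAJC30, a mitochondrial J-protein, was 1.58-fold higher [1.40 to 1.78], and TIMM44, which tethers HSPA9 to the import channel, was 1.43-fold higher [1.33 to 1.53]. DNAJC19 of the import motor had a log2 ratio of 0.17, the iron-sulfur cluster cochaperone HSCB 0.06 and the HSPA9 escort DNLZ -0.03. PAM16, the J-like regulator of the import motor, had -0.04, and since the read-through row CORO7-PAM16 spans its exons the split of reads between both is uncertain.

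TRAP1 (ENSG00000126602; chromosome 16, 3651639 to 3717553, minus strand) had 77.2 FPKM in siVCP and 68.9 in siNC, from 33042 and 31077 counts. It was 1.12-fold higher [1.09 to 1.16], a log2 ratio of 0.16. DNASE1 shares 28505 bases with it on the opposite strand at 1.61 and 1.68 FPKM. With 27.7% of all genes above it, TRAP1 had the lowest ratio of the 6 chaperones and cochaperones after HSPD1.

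**Figure D2:**
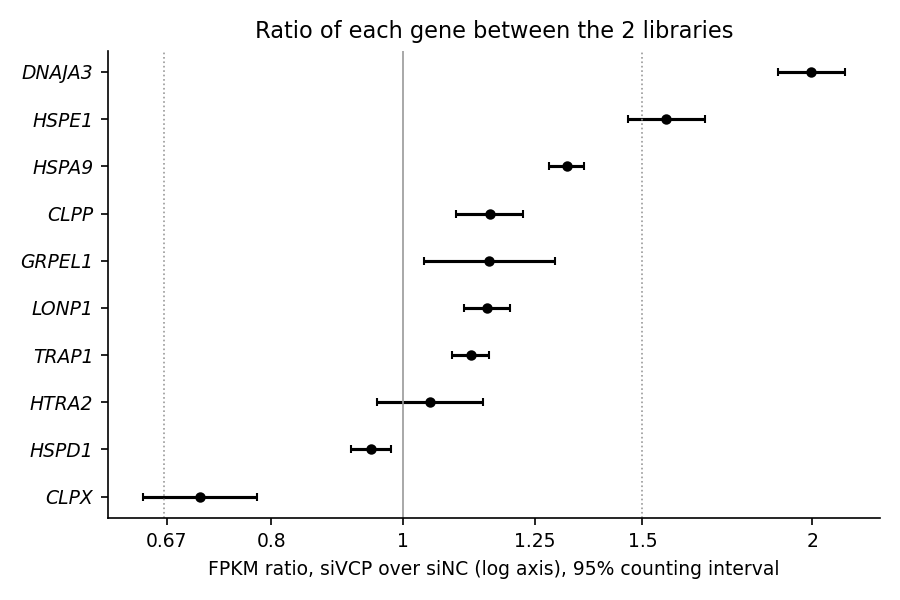
FPKM ratio of siVCP over siNC for each of the 10 genes on a log axis, with 95% intervals for counting error (1 library each), a line at 1 and dotted lines at 1.5-fold either way. DNAJA3 (1.997) and HSPE1 (1.56) lie past the dotted line, CLPX (0.709) is the lowest, and the interval of HTRA2 includes 1.

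None of the 4 protease subunits was 1.5-fold apart, where 4.53% of all genes were higher and 5.87% lower by that much. The 2 parts of CLPXP lay on opposite sides of 1. CLPP (ENSG00000125656; chromosome 19, 6361531 to 6370242, plus strand), the peptidase chamber, had 34.8 FPKM in siVCP and 30.0 in siNC, from 10142 and 9238 counts, and was 1.16-fold higher [1.09 to 1.23]. CLPX (ENSG00000166855; chromosome 15, 65148219 to 65185342, minus strand), the unfoldase, had 6.29 and 8.87 FPKM, from 2836 and 4222 counts. It was 1.41-fold lower in siVCP [1.28 to 1.55], a log2 ratio of -0.44, and 11.2% of all genes had a lower one. CLPX transcripts stood at 0.295 of those of CLPP in siNC and at 0.181 in siVCP, a ratio of ratios of 0.612 [0.548 to 0.683]. No other row lies within 1000 bases of CLPX.

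LONP1 (ENSG00000196365; chromosome 19, 5691834 to 5720572, minus strand) had 50.4 FPKM in siVCP and 43.7 in siNC, from 20926 and 19156 counts, which is 1.15-fold higher [1.11 to 1.20]. It overlaps 42 bases of RPL36, a ribosomal protein gene on the opposite strand with 260.2 and 253 FPKM, and reads in that stretch cannot be told apart. HTRA2 (ENSG00000115317; chromosome 2, 74529725 to 74533319, plus strand) had 17.95 and 17.2 FPKM, from 3882 and 3913 counts, a fold of 1.05 [0.957 to 1.15], an interval that includes 1. It overlaps AUP1 by 36 bases and LOXL3 by 1062 bases, both on the opposite strand. AUP1 had 71.7 FPKM in siVCP and 59.7 in siNC, above HTRA2 in both, and LOXL3 had 0.154 and 0.282, and reads in the shared bases cannot be told apart.

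Of 12 further mitochondrial proteases and peptidases, 11 reached 1 FPKM, with IMMP2L (0.768 and 0.956 FPKM) below it. None of the 11 was 1.5-fold apart in either direction, and their median log2 ratio was -0.02. Over genes of at least 5 FPKM it was 0.16, against 0.05 over all such genes, so its direction depends on the filter. PMPCA and PMPCB, the 2 subunits of the peptidase that cuts off the import signals, differed from each other. PMPCA had 33.4 FPKM in siVCP and 25.1 in siNC, 1.33-fold higher [1.27 to 1.39], whereas PMPCB had 10.4 and 12.6, a fold of 0.829 [0.772 to 0.891]. AFG3L2 of the inner membrane m-AAA protease had a log2 ratio of 0.29 and its partner SPG7 one of 0.05. The rhomboid protease PARL had 0.28 and the i-AAA protease YME1L1 -0.13. OMA1, a stress-activated protease of the inner membrane, had -0.22, the intermediate peptidase MIPEP -0.16 and XPNPEP3 -0.06, while PITRM1, which degrades cleaved import signals, had 0.04 and IMMP1L -0.02.

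**Figure D3:**
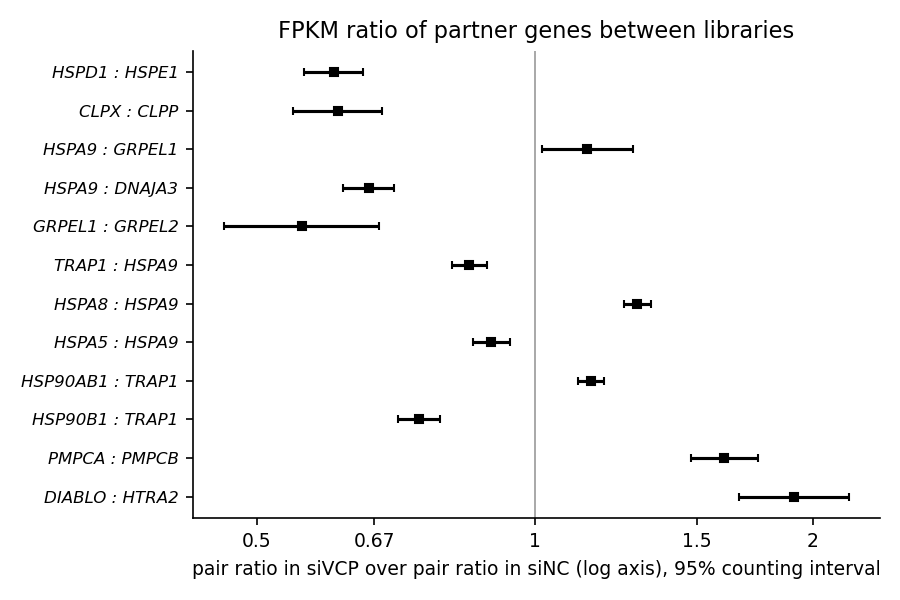
Ratio of 2 partner transcripts (FPKM of the first over the second) in siVCP divided by the same ratio in siNC, on a log axis with 95% intervals for counting error, 1 library each. HSPD1 to HSPE1 (0.606) and CLPX to CLPP (0.612) lie left of 1, and PMPCA to PMPCB (1.60) lies right of it; the pairs were chosen with values known.

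The prohibitins PHB (listed now as PHB1) and PHB2, which form ring scaffolds around the m-AAA protease, were on the higher side with the related STOML2, the disaggregase CLPB and the AAA protein BCS1L. All 5 had log2 ratios above 0, from 0.24 for CLPB to 0.53 for PHB, with a median of 0.33, and 0 of 5 were at least 1.5-fold higher. PHB had 40.2 FPKM in siVCP and 27.5 in siNC, 1.46-fold higher [1.39 to 1.55]. PHB2, with 233 and 185 FPKM, was more abundant than each of the 10 chaperone and protease genes and 1.26-fold higher [1.23 to 1.29].

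Genes for the same chaperone classes in other compartments were set beside these. In the cytosol, 11 counterparts had a median log2 ratio of 0.34, with 2 at least 1.5-fold higher and 0 lower. HSPA8, the constitutive cytosolic HSP70, had 431 FPKM in siVCP and 252.7 in siNC, 1.71-fold higher [1.68 to 1.73], and DNAJB1, its J-protein, was 1.80-fold higher [1.69 to 1.93]. DNAJA1 had a log2 ratio of 0.54 and the exchange factor HSPA4 one of -0.34. Relative to HSPA9, HSPA8 stood at 5.46 times in siNC and 7.06 times in siVCP. In the endoplasmic reticulum, 7 counterparts had a median log2 ratio of 0.0015, with 0 past 1.5-fold either way on the log2 scale with its pseudocount of 1. HSPA5 (BiP) had 84.5 and 71.3 FPKM, 1.19-fold higher [1.14 to 1.23], and HSP90B1 (GRP94) had 40.2 and 47.8, a fold of 0.840 [0.806 to 0.877]. DNAJB9 and DNAJC3, J-proteins of the endoplasmic reticulum, had log2 ratios of -0.53 and -0.46, and as a plain FPKM ratio DNAJB9 was 1.58-fold lower in siVCP [1.31 to 1.91]. Of the HSP90 genes of the cytosol, HSP90AB1 was 1.29-fold higher [1.275 to 1.306] and HSP90AA1, named after its value was seen, 1.07-fold higher [1.004 to 1.137], on either side of the 1.12-fold of TRAP1. The CCT chaperonin, the cytosolic relative of HSPD1, had a median of 0.26 over 8 subunits, from -0.12 for CCT8 to 0.56 for CCT3. Unlike HSPD1, 7 of its 8 subunits were above 0, and 0 of 8 passed 1.5-fold; whether the compartments differ was not tested.

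**Figure D4:**
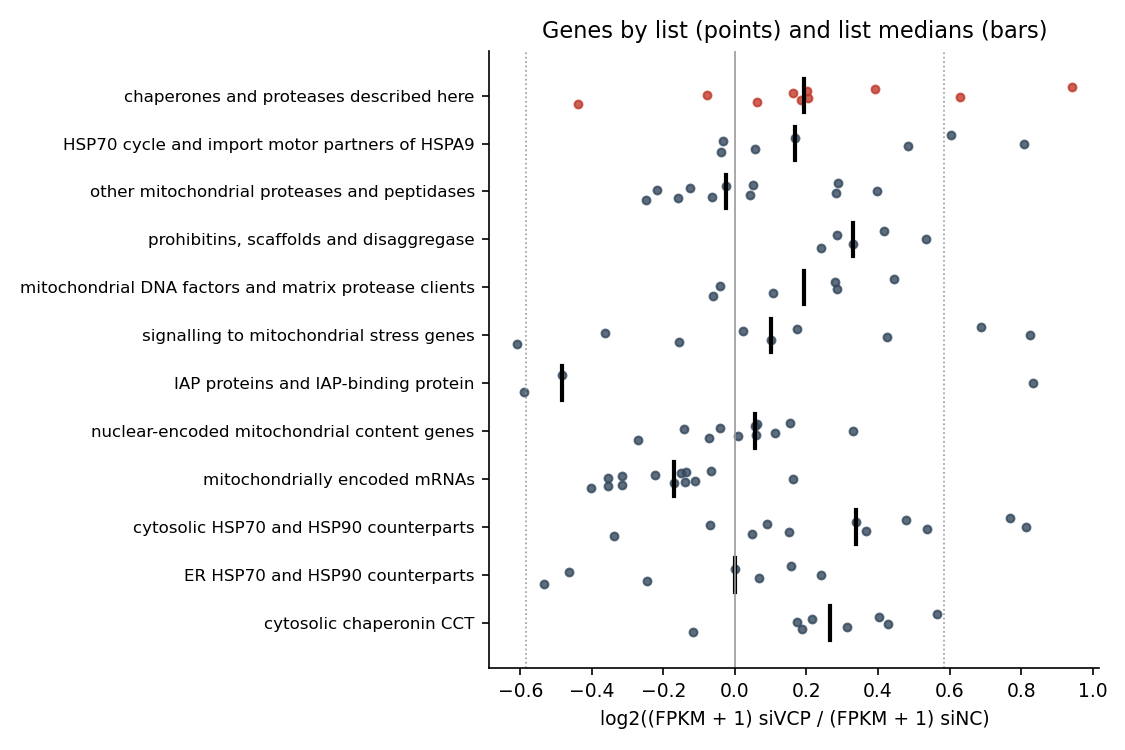
Log2 ratio of every gene that reached 1 FPKM, by list (points) with the list's median (black bar), a line at 0 and dotted lines at 1.5-fold either way, 1 library per group. Medians run from -0.48 for the IAP list to 0.34 for the cytosolic HSP70 and HSP90 counterparts. The 10 genes described here, in red, have 0.19. The IAP list (0.17 with a minimum of 5 FPKM) has 3 genes here, among them DIABLO (0.83), a protein that binds IAPs.

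Transcription factors that act on mitochondrial chaperone genes in mammals include ATF5, ATF4 and DDIT3 (CHOP). ATF5 had 6.67 FPKM in siVCP and 3.33 in siNC, 2.004-fold higher [1.69 to 2.38], and ATF4 was 1.63-fold higher [1.54 to 1.73]. DDIT3 had 5.75 and 9.29 FPKM, a fold of 0.619 [0.504 to 0.757], so that these 3 factors did not share a direction. CEBPB, which pairs with ATF4 and DDIT3, had a log2 ratio of 0.42. EIF2AK1 (HRI), the kinase that relays mitochondrial stress, had -0.36, and DELE1, the protein that activates it, -0.16. HSF1, the heat shock factor, had 0.10, NRF1 (nuclear respiratory factor 1) 0.17 and ESRRA 0.02. PPARGC1A stayed under 1 FPKM at 0.0507 and 0.227. Over the 9 of 10 genes that reached 1 FPKM, 2 were at least 1.5-fold higher, 1 was at least 1.5-fold lower and the median was 0.10.

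Genes that mark mitochondrial content lay closer to 0. Over 11 nuclear genes such as CS and VDAC1 the median log2 ratio was 0.06, with 0 past 1.5-fold in either direction. TOMM22 had the highest (0.33), followed by VDAC1 (0.15) and UQCRC1 (0.11), and TOMM20 (-0.27), ATP5F1A (-0.14) and CS (-0.07) had the lowest. DNAJA3, HSPE1 and HSPA9, at 0.94, 0.63 and 0.39, lay above all 11, and CLPX, at -0.44, lay below all 11. The rest of the chaperone and protease genes, from HSPD1 (-0.08) to CLPP (0.21), lay within the range of the 11.

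Across all genes the log2 ratio also varied with transcript length and GC content, here of the longest basic protein-coding transcript in GENCODE 29, which 83.0% of the genes and all 10 described here had. Spearman's rho over 9670 genes was -0.26 with length and 0.30 with GC content, as a description across genes that are not independent and share the same 2 libraries. The 10 genes alone had -0.16 for length and 0.26 for GC. CLPX, at 4695 bases and 41.3% GC, lies in the longer genes (the fourth of 5 bins, median -0.05) and in the lowest GC bin, whose median was -0.19 and of which 7.91% were at least 1.5-fold lower. HSPE1, at 950 bases, lies in the bin of shortest transcripts, whose median was 0.08 and of which 5.06% were at least 1.5-fold higher. HSPA9, at 4727 bases and 43.5% GC, had a ratio above 0 although its 2 bins had medians of -0.05 and -0.07. DNAJA3, at 2763 bases and 54.3% GC, had bins with medians of -0.0031 and 0.09, far below its 0.94. The part of length and GC content in these results was not tested.

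**Figure D5:**
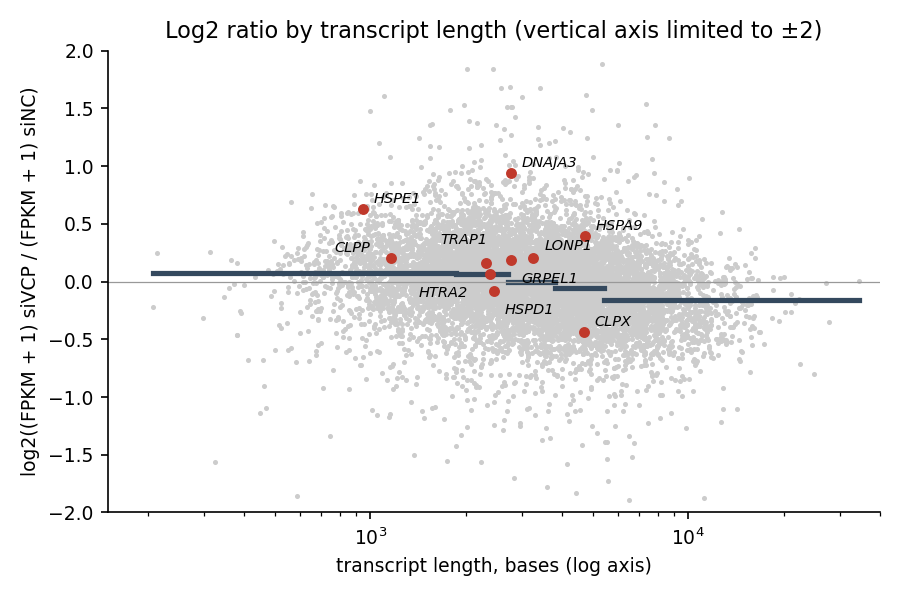
Log2 ratio against transcript length in bases (log axis) for 9670 genes (grey), with the median of each of 5 bins of genes by length (dark bars) and the 10 genes described here (red), 1 library per group. The medians run from 0.08 in the shortest to -0.16 in the longest bin, and the vertical axis is limited to 2 either way (27 of all 11645 genes lie beyond it).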

How the data were processed

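Per the labels' protocols, poly(A) RNA of ARP1 cells gave paired-end libraries. HISAT2 2.0 and StringTie 1.3.0 appear, per the submitters' processing notes, with neither role nor order. The deposited table holds, per the file headers, FPKM values normalized by the authors and whole-number counts for 1 library per group. Where the count was 0, the deposited FPKM was set to 0. Low deposited counts pile up at 4 (1205 rows in siVCP, against 417 at 3 and 244 at 5), so 1 fragment was inferred, not stated, to add 4 counts, and intervals use counts divided by 4.

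GENCODE 29 (GRCh38) held 58394 of the identifiers, 90.6% of them with an identical start or end, as had 5 of the 10 genes. The authors' build is not given in the sources used here. Rows sharing a symbol were summed. Folds are plain FPKM ratios with exact conditional binomial 95% intervals, and pair ratios have Wald intervals on the log scale. The log2 ratio adds a pseudocount of 1, which understates differences of low genes, and counts of genes past a fold use those that reached 1 FPKM in either library. No count model or test was run with 1 library per group. The steps were tested on simulated data.

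The 10 genes, the lists and the named-gene rule (all 10, VCP, the partner, protease, scaffold, signalling and IAP lists, the 3 highest and lowest of other lists, direct counterparts and overlapping or adjacent genes) were chosen with earlier results of these data known. The pairs and motifs were chosen after values were seen. Other settings were pseudocounts of 0.1 and 5, no filter, a minimum of 5 FPKM, 2 rescalings, the highest row per symbol, CPM from the counts, thresholds of 25% and 2-fold and, added after seeing the data, protein-coding rows. Values were computed with pandas 2.3.3, numpy 2.4.6 and scipy 1.17.1 in Python 3.11.15, and plots drawn with matplotlib 3.10.9.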

Additional observations from a re-analysis of the deposited data

How the results depend on the processing

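No paired analysis was possible because there was 1 library in either group, nor could a library be left out. Of 80 recomputed log2 ratios of the 10 genes, 78 stayed within their counting interval and 0 changed sign. Part of this was fixed in advance. Each of the 10 genes has 1 row and exceeds 5 FPKM in both libraries. Their ratios therefore could not move with no filter, a minimum of 5 FPKM or the highest row per symbol. With a pseudocount of 5, CLPX had -0.30 and DNAJA3 0.77, and 1 of the 10 genes in place of 2 was at least 1.5-fold higher, since HSPE1 had 0.58. At 2-fold 0 of the 10 were higher, and at a threshold of 25% 1 was lower. Of 96 list medians 90 stayed. The IAP list, which includes DIABLO, had -0.27 with a pseudocount of 5. With an FPKM of at least 5 it had 0.17, from DIABLO (0.83) and BIRC6 (-0.48) alone. The other proteases had 0.16 there, also over fewer genes. Mitochondrial mRNAs had -0.14 after both rescalings (-0.141 and -0.140) and with CPM (-0.140). Of 42 counts 29 stayed within 1.5 times. All genes at least 1.5-fold higher and lower numbered 528 and 684. The lower ones were 1351 with a pseudocount of 0.1 and 448 over protein-coding rows. A pseudocount of 5 gave 163 higher and 141 lower genes, a minimum of 5 FPKM gave 328 and 288, a threshold of 25% gave 1621 and 2135, and 2-fold gave 122 and 153. GRPEL1, CLPX and HTRA2 rest on the fewest counts of the 10 genes (2451 to 4222) and have the widest intervals of fold.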

Other observations

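Transcripts linked to HTRA2 in cell death differed more than HTRA2 itself. HTRA2 and DIABLO (Smac) are mitochondrial proteins that bind inhibitors of apoptosis (IAPs) once released into the cytosol. DIABLO had 7.19 FPKM in siVCP and 3.60 in siNC, 1.997-fold higher [1.80 to 2.22], and stood at 0.401 of HTRA2 in siVCP and 0.210 in siNC. The inhibitors looked at, BIRC2, BIRC6, XIAP and BIRC3, were on the other side. BIRC2 had 1.75 and 3.14 FPKM, a fold of 0.557 [0.458 to 0.676], and BIRC6 had 4.57 and 6.79, a fold of 0.673 [0.633 to 0.716]. XIAP and BIRC3 were under 1 FPKM in both libraries, at 0.313 against 0.828 and 0.263 against 0.585. BIRC6 has a transcript of 15703 bases and XIAP one of 8591, in the length range where log2 ratios were lower across all genes. GC content, with which log2 ratios rose across all genes, was 55.94% for DIABLO. It was 38.05% for BIRC2, 43.06% for BIRC6, 38.98% for XIAP and 34.75% for BIRC3. The parts of length and GC content were not tested.

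Among genes that maintain mitochondrial DNA or are known clients of matrix proteases, the helicase TWNK had a log2 ratio of 0.44, the single-strand binding protein SSBP1 0.28 and the polymerase POLG 0.11. TFAM, which packs mitochondrial DNA and is degraded by LONP1, had -0.04. ALAS1, the first enzyme of heme synthesis, had -0.06. Of the 6 genes on this list 0 passed 1.5-fold and the median was 0.19. Of 13 mitochondrially encoded mRNAs 12 were below 0, against 6153 of all 11645 genes. The 13 had a median of -0.17, from MT-ND6 at -0.40 to MT-ND1 at 0.16.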
